A study of Mus musculus with 10 samples.

Results

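Hedgehog signalling carries a message from a cell that secretes a ligand to a neighbour that bears the receptor. Patched 1 (Ptch1) holds the membrane protein Smoothened (Smo) inactive until a ligand binds it, Smo then acts through the primary cilium, and the Gli transcription factors switch from repressor to activator forms. Boc, Cdon and Gas1 are co-receptors that help Ptch1 bind ligand, Hhip soaks ligand up at the cell surface, and Sufu holds Gli proteins back. Gli1, Ptch1 and Hhip are also targets of the pathway, so their RNA is widely read as its output, and in kidney the ligands come mainly from tubule epithelium while Gli1 marks stromal cells around vessels. These 10 genes, Ptch1, Smo, Gli1, Gli2, Gli3, Hhip, Boc, Cdon, Gas1 and Sufu, were taken by name from 33644 genes of a mouse kidney bulk RNA table, and all 10 passed the filter on low counts.

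The kidneys came from mice 8 weeks old after ligation of 1 renal artery for 15 minutes, which stops the blood flow and then lets it return (ischaemia-reperfusion injury), and were taken 2 weeks later. Of the 3 injured arms, 1 was Pax8creERT2;Ihhfl/fl with tamoxifen (here the labelled Ihh-deleted arm), 1 was C57/BL6 with tamoxifen (the wild-type tamoxifen arm) and 1 was Pax8creERT2;Ihhfl/fl without tamoxifen (the floxed vehicle arm). Pax8 drives Cre in tubule epithelium, so the deletion is aimed at the cells that secrete Indian hedgehog (Ihh), and stroma keeps its own genes. The wild-type tamoxifen and floxed vehicle arms are together called the intact arms. Each injured arm had its contralateral kidneys, and C57/BL6 kidneys contralateral to a nephrectomy and uninjured C57/BL6 kidneys completed the 8 bulk groups of 4 libraries. An injured and an uninjured C57/BL6 kidney were sequenced as single cells sorted live with DAPI, 1 library each. The labels do not say that the 4 libraries of a group are separate animals, so p-values measure the spread between these libraries. The wild-type tamoxifen arm carries neither Cre nor floxed alleles and the floxed vehicle arm lacks tamoxifen, so each differs from the labelled Ihh-deleted arm in another way.

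Of 32 bulk libraries, 29 had a kidney profile and 3 (uninjured 1 and 4, nephrectomy 3) did not: Slc34a1, a proximal tubule phosphate transporter, was at 627.1 to 5949.67 CPM (counts scaled to the library total) in the 29 and at 0.92 to 3.7 in the 3, where the cardiac myosin Myh6 was at 30525.4 to 31548.99. Those 3 were left out of every comparison. Library totals ran from 0.593 to 37.976 M counts, the lowest being uninjured library 2, and the 24 injured and contralateral libraries each held at least 18.199 M counts. Nephrectomy library 1 had Myh6 at 313.61 CPM. Values per library below are CPM scaled by TMM, edgeR's factors for RNA composition, and differences are log2 changes from edgeR's quasi-likelihood test over 17591 genes, called at an adjusted p (Benjamini-Hochberg) under 0.05.

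The targeted gene gave no clear separation of the arms. In the 4 injured libraries of the labelled Ihh-deleted arm Ihh was at 4.252, 6.003, 5.335 and 4.31 CPM, a mean of 4.975 ± 0.847 (SD, n = 4). In the 8 injured libraries of the intact arms it averaged 8.237 ± 2.783 (SD, n = 8), from 4.768 to 13.67. The difference was -0.72 on the log2 scale (SE 0.33) and did not pass the test (edgeR quasi-likelihood, adjusted p = 0.0828). In the contralateral kidneys of the labelled Ihh-deleted arm Ihh ranged from 3.882 to 18.28 CPM, and the contralateral intact arms averaged 12.52 ± 3.074 (SD, n = 8). Directions drawn from the deletion below therefore rest on the label.

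The promoters of these genes were read first, because Gli1, Ptch1 and Hhip are textbook Gli targets and because several members moved together with injury. RefSeq promoter windows on build GRCm38.p6, 250 bases before to 50 after the start site, were found for 8 of the 10 members, all but Gli1 and Boc. Each was searched on both strands for the Gli binding motif GACCACCCA, whose reverse complement is TGGGTGGTC. None of the 8 held it, and 83 of 32851 promoters of the same length did (0.253%). With 1 mismatch allowed, a looser search added after that result was seen, the count was 0 of 8 against 2214 promoters (6.74%). The 8 windows had a median GC content of 67.5%, and all promoters 52.7%. Shown 5′ to 3′ on the gene's strand are the windows of Ptch1 and Hhip, the 2 target genes with a window, and of Gli3 and Cdon, which rose together after injury. Capitals mark every stretch with the window's fewest mismatches to the motif on either strand, and overlapping stretches run together. Hhip had 1 such stretch, with 2 mismatches, while Ptch1 had 4, Gli3 had 11 and Cdon had 8, each with 3 mismatches. The windows are Ptch1 chr13:63565686-63565985 on the minus strand, Hhip chr8:80057959-80058258 on the minus strand, Gli3 chr13:15463473-15463772 on the plus strand and Cdon chr9:35451826-35452125 on the plus strand. In the gene positions given below Ptch1 begins at 63573598 and Cdon at 35421128. Their windows thus lie well inside the genes, at other start sites, and the sequence around those outer starts was not searched. The Cdon window had a GC content of 44.7%.
Ptch1: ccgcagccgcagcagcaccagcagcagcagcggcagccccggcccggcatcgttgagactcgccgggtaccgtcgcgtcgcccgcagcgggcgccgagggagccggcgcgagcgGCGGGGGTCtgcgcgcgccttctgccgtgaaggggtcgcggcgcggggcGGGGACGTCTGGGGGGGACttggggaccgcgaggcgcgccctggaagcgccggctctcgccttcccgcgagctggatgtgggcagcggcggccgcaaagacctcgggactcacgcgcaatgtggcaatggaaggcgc
Hhip: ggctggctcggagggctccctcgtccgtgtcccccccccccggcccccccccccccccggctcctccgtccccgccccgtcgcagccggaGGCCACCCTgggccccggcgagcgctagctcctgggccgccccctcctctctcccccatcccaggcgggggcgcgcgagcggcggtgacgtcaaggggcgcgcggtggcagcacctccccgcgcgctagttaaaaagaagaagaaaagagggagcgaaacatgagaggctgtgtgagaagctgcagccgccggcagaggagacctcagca
Gli3: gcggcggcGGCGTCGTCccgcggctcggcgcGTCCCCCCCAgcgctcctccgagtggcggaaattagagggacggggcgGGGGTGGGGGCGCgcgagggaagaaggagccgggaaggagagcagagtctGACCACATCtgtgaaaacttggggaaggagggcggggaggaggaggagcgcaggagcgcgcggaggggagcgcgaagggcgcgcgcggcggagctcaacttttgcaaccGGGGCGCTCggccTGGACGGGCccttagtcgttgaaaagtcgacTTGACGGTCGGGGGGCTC
Cdon: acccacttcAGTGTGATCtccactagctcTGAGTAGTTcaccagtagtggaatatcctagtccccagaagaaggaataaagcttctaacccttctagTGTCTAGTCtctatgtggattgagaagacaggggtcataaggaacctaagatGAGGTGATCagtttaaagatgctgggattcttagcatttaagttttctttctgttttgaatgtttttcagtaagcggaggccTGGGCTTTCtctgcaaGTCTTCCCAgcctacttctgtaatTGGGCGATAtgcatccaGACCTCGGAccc
The stretch in Hhip began at position -160 from the start site. The absence of a match says only that these letters are not in these windows.

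In contralateral kidneys the receptor side of the pathway was far more abundant than its transcription factors. Per transcript length, in TPM over the 12 contralateral kidneys, Smo was at 51.1 ± 5.55 (SD, n = 12), Sufu at 49.4 ± 8.72, Ptch1 at 30.3 ± 6.18 and Gas1 at 27.6 ± 3.02. Boc followed at 5.66 ± 1.13 TPM and Cdon at 4.92 ± 1.28. The Gli factors were low, with Gli3 at 0.685 ± 0.199 TPM, Gli1 at 0.422 ± 0.172 and Gli2 at 0.418 ± 0.186, and Hhip was lowest at 0.129 ± 0.123. Smo and Sufu, Ptch1 and Gas1, Boc and Cdon, and Gli1 and Gli2 were neighbours in that order whose means lay within 1 SD of each other.

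The order shifted in part in the injured intact kidneys: Gas1 stood above Sufu and Ptch1, Cdon above Boc and Hhip above Gli2. Gli3 and Gli1 kept their places. Mean TPM was higher there for all members but Sufu. There Smo was at 60.5 ± 8.86 TPM (SD, n = 8), Gas1 at 43.9 ± 14.3, Sufu at 39.4 ± 5.34 and Ptch1 at 37.6 ± 7.75. Cdon reached 21.2 ± 4.83 TPM and Boc 17.0 ± 5.2, and Gli3 (3.7 ± 1.2) and Gli1 (3.54 ± 1.54) then lay far above Gli2 (0.537 ± 0.231). Hhip was at 1.01 ± 0.855 TPM, and the mean of Gli2 lay within 1 SD of it. The TPM levels of Gas1, Sufu and Ptch1 were within 1 SD of each other there, as were those of Cdon and Boc and of Gli3 and Gli1. Most of each gene's level came from 1 or a few transcripts: Gli1-201 carried 74.49% of Gli1's over the 29 libraries, and Ptch1-202 and Ptch1-201 carried 51.98% and 17.08% of Ptch1's. A retained-intron form, Gli1-205, made up 20.53% of Gli1's level and another, Gli3-203, 23.26% of Gli3's.

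With TMM factors, injury was followed by higher Gli1, Gli3, Hhip, Cdon and Boc and by lower Sufu, Smo and Ptch1. The falls of Smo and Ptch1 depended on the scaling: with library totals they turned to 0.05 and 0.10 and were not called. Of the 10 members 5 rose, where 39% of all genes tested were called higher, and 3 fell, where 34.7% were called lower. Their median log2 change was 0.52, against 0.05 for all genes. So many genes changed that the counts of members stand near those shares, and the sizes for each gene carry the description. The share of all genes whose injured and contralateral libraries did not overlap was not counted.

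Gli1 (chr10:127329882-127341974, minus strand, mm10), the activator whose own gene the pathway turns on, was at 3.84, 2.964, 3.912 and 4.296 CPM in injured wild-type tamoxifen kidneys. It was at 3.999, 3.963, 1.309 and 6.471 CPM in injured floxed vehicle kidneys and at 2.03, 1.28, 0.489 and 2.288 in the labelled Ihh-deleted ones. The 12 contralateral kidneys held 0.2827 to 1.065 CPM, with a median of 0.5836. Thus 11 of 12 injured libraries lay above every contralateral one, and the exception was library 3 of the labelled Ihh-deleted arm. The change was 2.28 (SE 0.26; edgeR quasi-likelihood, adjusted p = 4.13e-08), a 4.87-fold rise on 11 to 155 counts per injured library.

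Gli3 (chr13:15463235-15730026, plus strand), the main repressor of the family, was at 10.26, 8.602, 6.001 and 9.488 CPM in injured wild-type tamoxifen kidneys and at 6.142, 7.671, 5.584 and 11.15 in floxed vehicle ones. In the labelled Ihh-deleted arm it was at 4.061, 4.812, 2.667 and 4.807 CPM, and contralateral kidneys ranged from 1.419 to 2.78 with a median of 1.87. Again 11 of 12 injured libraries exceeded all contralateral ones. The rise was 1.70 (SE 0.17; edgeR, adjusted p = 5.42e-09). Gli2 (chr1:118834132-119053619, minus strand), the main activator at the start of the response, did not pass the test: it was at 0.6161 to 1.778 CPM in injured kidneys (median 1.152) and at 0.3659 to 1.402 in contralateral ones (median 1.04). Its change was 0.24 (SE 0.19; edgeR, adjusted p = 0.251), on 16 to 53 counts per injured library.

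Hhip (chr8:79965851-80058006, minus strand), the decoy that binds ligand, differed between the arms more than any other member. Injured wild-type tamoxifen kidneys held 5.353, 2.255, 8.165 and 3.922 CPM. Injured floxed vehicle kidneys held 2.886, 0.4262, 0.3851 and 1.336, and labelled Ihh-deleted ones 0.3448, 0.1324, 0.1778 and 1.028. Its contralateral values were 0.04627 to 1.427 CPM, so 5 of 12 injured libraries stood above them all, namely the 4 of the wild-type tamoxifen arm and floxed vehicle library 1. The rise over all arms was 1.55 (SE 0.45; edgeR, adjusted p = 0.00322).

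The co-receptors Cdon and Boc rose and Gas1 did not pass the test. Cdon (chr9:35421128-35507652, plus strand) was at 60.69, 53.29, 52.22 and 44.82 CPM in injured wild-type tamoxifen kidneys, at 35.29, 48.75, 38.55 and 54.81 in floxed vehicle ones, and at 31.41, 23.66, 16.58 and 37.83 in labelled Ihh-deleted ones. Contralateral Cdon lay between 9.492 and 18.88 CPM, so 11 of 12 injured libraries were above that range. Its rise of 1.43 (SE 0.12; edgeR, adjusted p = 4.54e-10) had the lowest p of the 10 members. Boc (chr16:44485049-44558897, minus strand) was at 35.15, 26.9, 26.85 and 24.13 CPM in injured wild-type tamoxifen kidneys, at 15.25, 25.49, 18.21 and 31.1 in floxed vehicle ones and at 15.09, 16.33, 11.78 and 16.18 in labelled Ihh-deleted ones. Contralateral Boc was at 9.349 to 14.72 CPM (median 12.13), and the labelled Ihh-deleted values lay just above or within that range. Its rise was 0.80 (SE 0.11; edgeR, adjusted p = 4.75e-07).

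Gas1 (chr13:60174405-60177365, minus strand), a lipid-anchored surface protein, was at 66.23, 45.91, 37.67 and 46.84 CPM in injured wild-type tamoxifen kidneys and at 22.79, 25.96, 27.16 and 27.48 in injured labelled Ihh-deleted ones. Floxed vehicle kidneys held 26.71, 36.65, 37.97 and 51.85, and contralateral kidneys 32.78 to 62.52 with a median of 37.79. The injured arms thus lay on both sides of the contralateral level, and the change over all arms was -0.14 with TMM factors (SE 0.11; edgeR, adjusted p = 0.227) and 0.24 with library totals (adjusted p = 0.0445).

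Sufu (chr19:46396896-46488804, plus strand), the brake on Gli proteins, fell without overlap between injured and contralateral kidneys (the share of all genes that did so was not counted). Injured Sufu was at 38.1, 35.54, 48.16 and 51.44 CPM with wild-type tamoxifen, at 45.96, 39.8, 47.79 and 34.48 with floxed vehicle and at 50.42, 52.84, 63.7 and 44.72 in the labelled Ihh-deleted arm. Contralateral Sufu was at 65.12 to 87.41 CPM (median 73.76), above all 12 injured libraries. The fall was -0.71 (SE 0.08; edgeR, adjusted p = 2.74e-08), and with library totals in place of TMM factors it was -0.36 (adjusted p = 0.000151).

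Smo and Ptch1, signal transducer and ligand receptor, moved little. Smo (chr6:29735503-29761365, plus strand) was at 57.54 to 82.91 CPM in injured kidneys (median 72.81) and at 80.29 to 107.8 in contralateral ones (median 91.76), with 9 of 12 injured libraries below all contralateral ones. Ptch1 (chr13:63508328-63573598, minus strand) was at 53.1 to 82.83 CPM after injury (median 68.68) and at 56.02 to 96.88 in contralateral kidneys (median 84.54), and the ranges overlapped nearly throughout. With TMM factors Smo fell by 0.32 (SE 0.06; edgeR, adjusted p = 2.85e-05) and Ptch1 by 0.26 (SE 0.07; adjusted p = 0.0013), and with library totals both signs turned, to 0.05 and 0.10, with neither passing the test. Over all arms Ptch1, itself a target gene, was thus not called higher under either scaling. In the wild-type tamoxifen arm alone it was called higher with library totals (0.36; edgeR, adjusted p = 0.0339). TMM factors averaged 1.17 in injured and 0.906 in contralateral libraries. The median change over all genes was 0.05 with TMM factors, 0.14 with RLE factors and 0.42 with library totals, and 52.9%, 58.6% and 75.6% of called genes were higher. Gli2 passed the test with library totals at 0.61 (adjusted p = 0.0081).

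**Figure D1:**
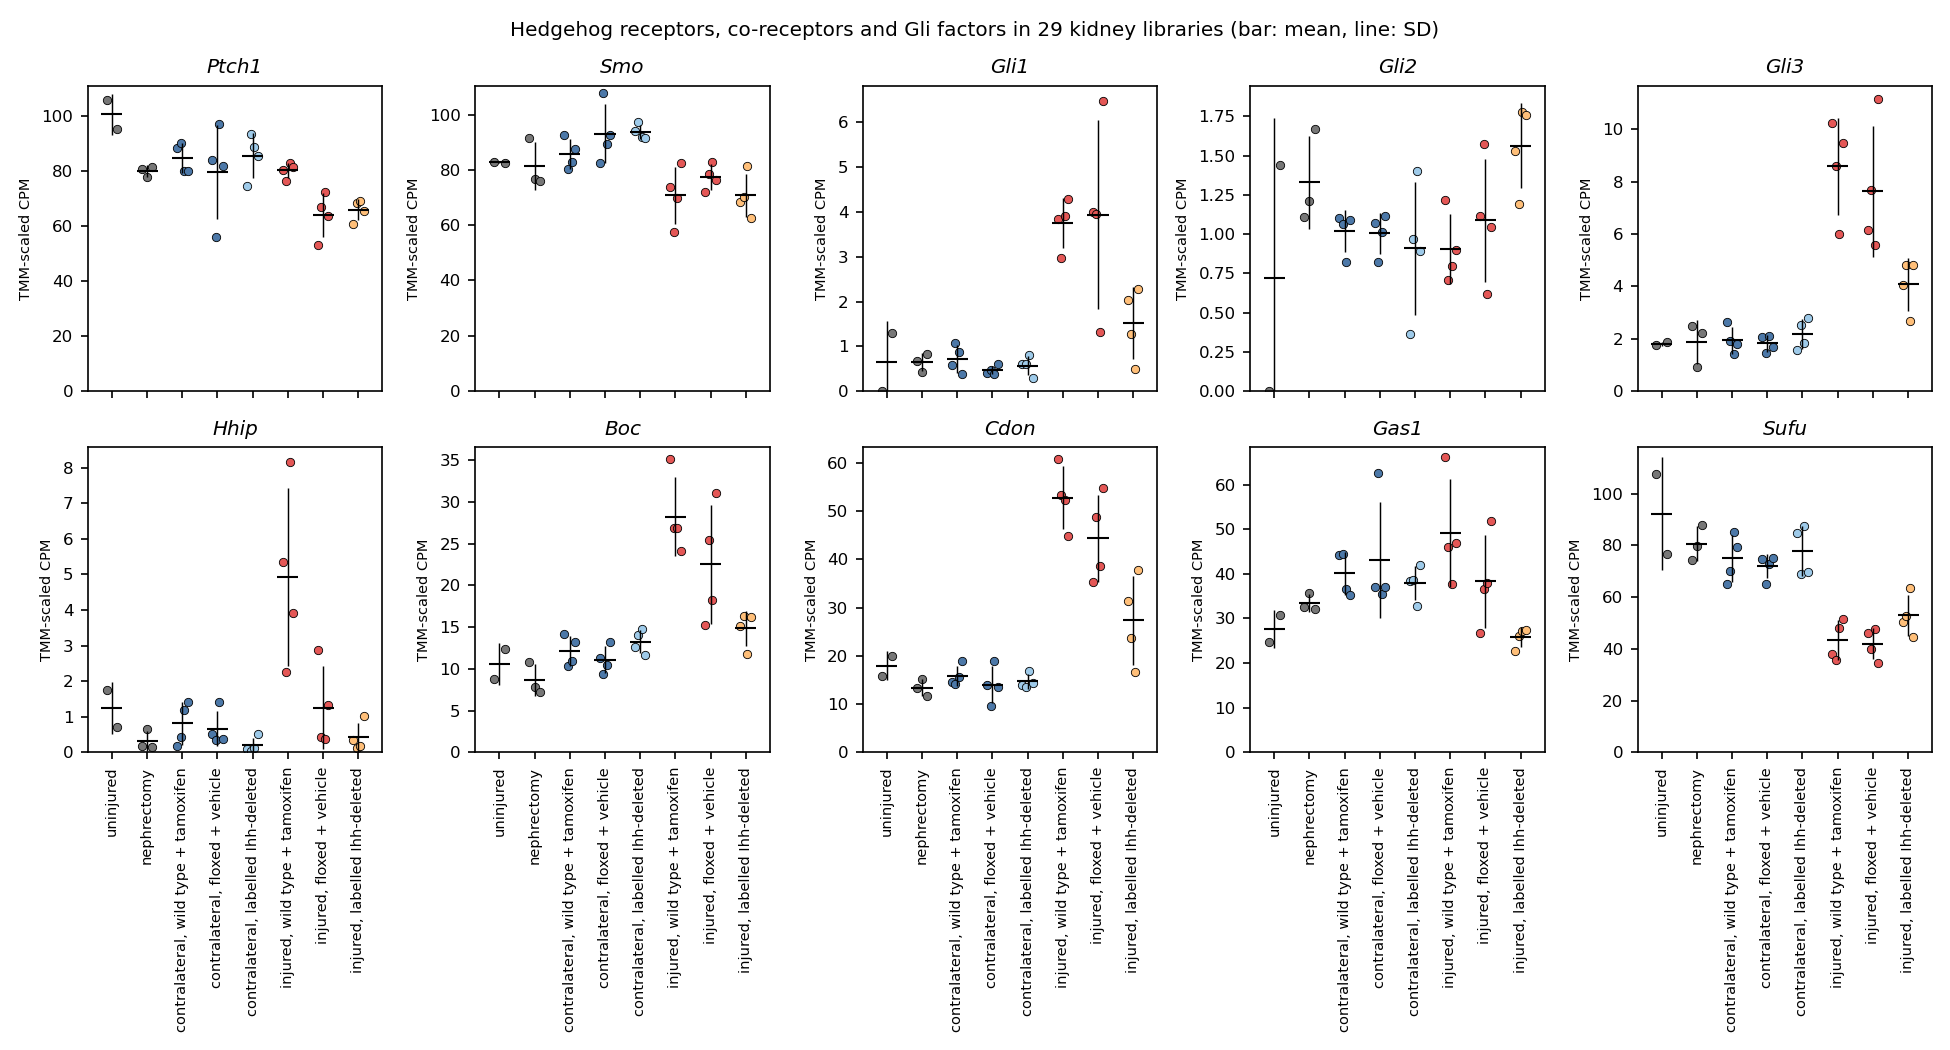
Each panel plots 1 of the 10 genes as TMM-scaled CPM in the 29 kidney-profile libraries; points are libraries by group, the bar is the group mean and the line 1 SD. Gli1, Gli3, Cdon and Boc stand above the contralateral groups in 11 of 12 injured libraries and Sufu below them in all 12. The share of all genes that separate in this way was not counted.

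Taken arm by arm, both intact arms gave the same 5 calls among Gli1, Gli3, Boc, Cdon and Sufu. In the wild-type tamoxifen arm Gli1 rose by 2.37 (SE 0.45), Gli3 by 2.14, Hhip by 2.59, Cdon by 1.74 and Boc by 1.22, and Sufu fell by 0.79; the 4 injured and 4 contralateral libraries did not overlap for any of these 6. Over all genes in that arm 32% were higher and 28.7% lower, and the share without overlap was not counted. In the floxed vehicle arm Gli1 rose by 3.06 (SE 0.46), Gli3 by 2.06, Cdon by 1.67 and Boc by 1.02, Sufu fell by 0.78, and Hhip at 0.91 (SE 0.73) did not pass (edgeR, adjusted p = 0.277), with 32.6% of all genes higher and 31% lower. Smo fell in both intact arms, by 0.27 in each (edgeR, adjusted p = 0.02 with wild-type tamoxifen and 0.0226 with floxed vehicle), but with library totals it stood at 0.16 and 0.21, and the second value was called higher (adjusted p = 0.042). Ptch1 was at -0.08 with wild-type tamoxifen (adjusted p = 0.58) and fell by 0.32 with floxed vehicle (adjusted p = 0.0199), where with library totals it was at 0.36 (adjusted p = 0.0339) and 0.12. Both calls of Smo and that of Ptch1 were lost with RLE factors and DESeq2. Without 1 library Smo's call was lost for injured 2 or contralateral 1 with wild-type tamoxifen and for injured 1 or contralateral 2 with floxed vehicle, and Ptch1's for injured 1 or contralateral 3. Gli2 (-0.17 and 0.11) and Gas1 (0.29 and -0.17) did not pass in either intact arm.

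In the labelled Ihh-deleted arm 7 members were called, 3 higher and 4 lower, where 19.3% of all genes were higher and 14.6% lower. The changes of Gli1, Gli3, Cdon and Boc were smaller there than in each intact arm. Gli1 rose by 1.42 (SE 0.45; edgeR, adjusted p = 0.0198), Gli3 by 0.91 (SE 0.29; 0.0191) and Cdon by 0.90 (SE 0.20; 0.00234). Boc at 0.16 (adjusted p = 0.519), Hhip at 1.15 (SE 0.87; adjusted p = 0.309) and Gli2 at 0.79 (SE 0.33; adjusted p = 0.0637) did not pass. Gas1 fell by 0.55 (SE 0.19; adjusted p = 0.0247), from 38.46, 38.54, 32.78 and 41.98 CPM in contralateral kidneys, although with library totals the change was -0.37 and the call was lost (adjusted p = 0.122). Sufu fell by 0.56 (adjusted p = 0.00393), Smo by 0.41 (SE 0.10; adjusted p = 0.00403) and Ptch1 by 0.38 (SE 0.12; adjusted p = 0.0154). For Gas1, Sufu, Smo and Ptch1 all 4 injured libraries lay below all 4 contralateral ones (the share of all genes that did so was not counted). With library totals Smo (-0.22, adjusted p = 0.0524) and Ptch1 (-0.19, adjusted p = 0.319) kept their sign and lost their calls. Several calls rested on single libraries or settings: that of Gli1 was lost with transcript length offsets (0.98, adjusted p = 0.13) and without injured library 1 or 4 or contralateral library 4, that of Gli3 without injured library 2 or 4 or contralateral library 1 or 3, that of Gas1 without injured library 1 or contralateral library 4, and that of Ptch1 with transcript length offsets (-0.28, adjusted p = 0.124) and without injured library 1 or contralateral library 2.

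Set against the 8 injured kidneys of the intact arms, the 4 labelled Ihh-deleted ones had less Hhip, Gli1, Gli3, Cdon, Boc and Gas1. Of the 10 members 6 fell, where 16.7% of all genes tested were lower, and 1 rose, where 20.5% were higher, and their median log2 difference was -0.76 against -0.01 for all genes. Hhip averaged 0.421 ± 0.415 CPM (SD, n = 4) against 4.924 ± 2.504 in the wild-type tamoxifen arm and 1.258 ± 1.171 in the floxed vehicle arm, a difference of -2.51 (SE 0.70; edgeR, adjusted p = 0.00782) from both. Gli1 averaged 1.522 ± 0.810 CPM against 3.753 ± 0.563 and 3.936 ± 2.108, a difference of -1.32 (SE 0.38; adjusted p = 0.00953), and its call was lost without labelled Ihh-deleted library 3 (-1.04, adjusted p = 0.0516).

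Gli3 was the member whose 4 labelled Ihh-deleted libraries all lay below all 8 intact ones (the share of all genes that did so was not counted). Its difference was -0.98 (SE 0.25; edgeR, adjusted p = 0.00457). The co-receptors fell by similar amounts, Cdon by 0.82 (SE 0.18; adjusted p = 0.00168), Boc by 0.76 (SE 0.17; 0.00157) and Gas1 by 0.75 (SE 0.16; 0.00171). For Hhip and Cdon 3 of 4 libraries, and for Gli1, Boc and Gas1 2 of 4, lay below the whole intact range.

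The receptor pair did not pass the test, with Ptch1 at -0.12 (adjusted p = 0.356) and Smo at -0.07 (adjusted p = 0.574); with library totals both were called lower, at -0.36 (adjusted p = 0.0279) and -0.31 (adjusted p = 0.00366). Gli2 was the member with the highest value, 0.66 (SE 0.27; edgeR, adjusted p = 0.0593), with 1.532, 1.192, 1.778 and 1.757 CPM in labelled Ihh-deleted kidneys. Sufu rose by 0.31 (SE 0.12; adjusted p = 0.0392), a call that ended under RLE factors, library totals (0.07, adjusted p = 0.637), no filter, DESeq2 and without any of 7 single libraries.

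Each intact arm was also taken alone as the reference. Against the wild-type tamoxifen arm Hhip differed by -3.49 (SE 0.77; edgeR, adjusted p = 0.00158), Gli1 by -1.29, Gli3 by -1.07, Cdon by -0.95, Boc by -0.93 and Gas1 by -0.93, all 6 past the threshold. Against the floxed vehicle arm, which shares the genotype, Hhip at -1.52 (SE 0.75; adjusted p = 0.153) did not pass, while Gli1 at -1.36 (adjusted p = 0.0329), Gli3 at -0.90, Cdon at -0.69, Boc at -0.60 and Gas1 at -0.57 (adjusted p = 0.04) did. Sufu passed in neither. Between the 2 intact arms no member passed after injury, where 2.23% of all genes did; at an unadjusted p under 0.05 there were 2, Hhip (1.96 higher with wild-type tamoxifen) and Ptch1 (0.33), and DESeq2 called 0.

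The difference of the injury change itself was tested as an interaction term. Boc (-0.96, SE 0.23; edgeR, adjusted p = 0.012), Gli3 (-1.19, SE 0.35; 0.0275) and Cdon (-0.81, SE 0.25; 0.0323) changed less with injury in the labelled Ihh-deleted arm than in the intact arms, where 5.74% of all genes were lower. Gli1 (-1.30, SE 0.55; adjusted p = 0.101), Gas1 (-0.62, SE 0.23; 0.0606), Gli2 (0.82, SE 0.40; 0.148), Hhip (-0.60, SE 1.06), Ptch1 (-0.18), Smo (-0.13) and Sufu (0.23) did not pass. Gas1 did pass with RLE factors (-0.69, adjusted p = 0.0402), DESeq2 (-0.69, adjusted p = 0.024) and library totals (-0.91, adjusted p = 0.0129), and without injured labelled Ihh-deleted library 4, injured wild-type tamoxifen library 3, injured floxed vehicle library 1 or contralateral floxed vehicle library 2. The call of Boc held without any single library, that of Gli3 was lost without injured labelled Ihh-deleted library 3 or contralateral labelled Ihh-deleted library 2 or 4, and that of Cdon without any of 6 libraries (injured labelled Ihh-deleted 2 and 3, injured wild-type tamoxifen 1, injured floxed vehicle 4, contralateral labelled Ihh-deleted 3 and 4). With the column number as a block Cdon's call was lost too (-0.88, adjusted p = 0.0749).

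**Figure D2:**
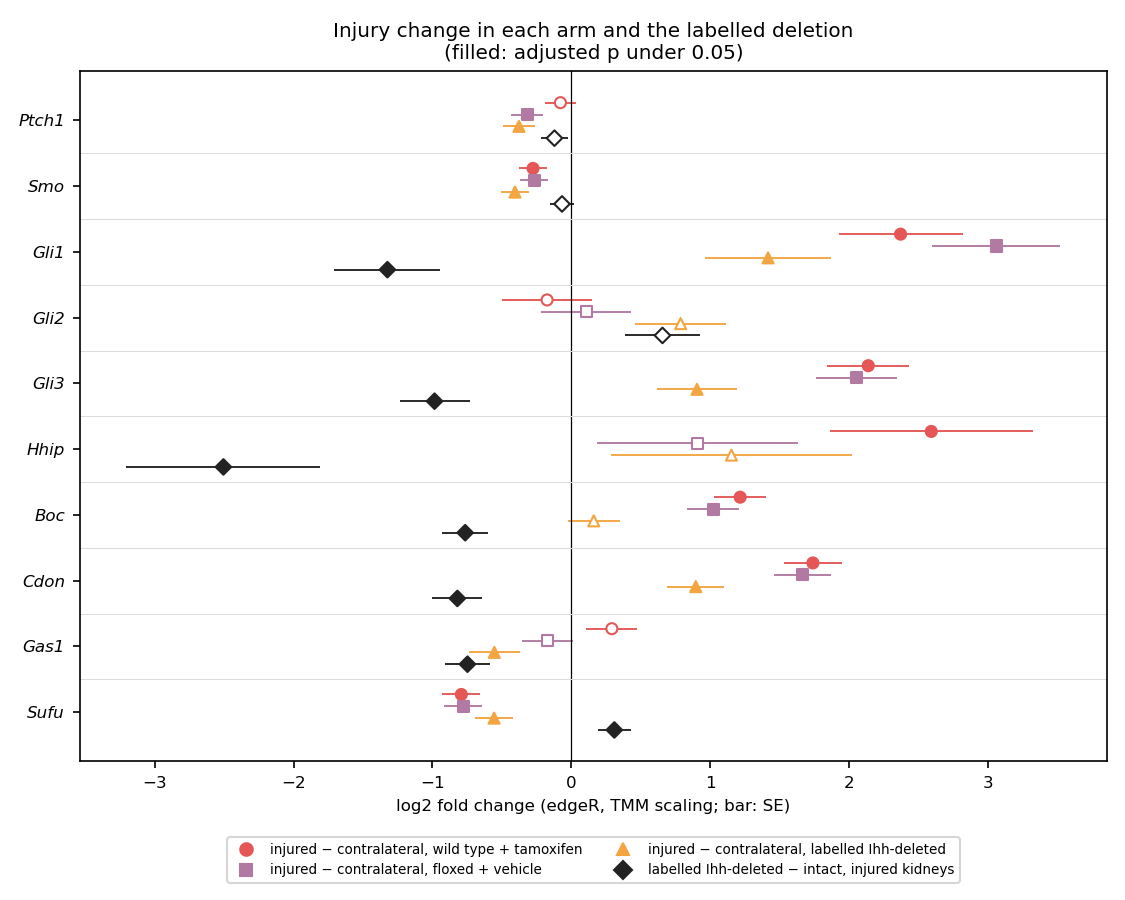
Log2 changes with standard errors for the 10 genes, with injury in each arm and between labelled Ihh-deleted and intact arms after injury; filled points passed an adjusted p of 0.05. Gli1, Gli3, Boc and Cdon are positive with injury and negative in the deleted comparison; the injury directions of Ptch1, Smo and Gas1 turn with library totals.

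Without injury the members showed no called difference. In contralateral kidneys, labelled Ihh-deleted against intact, 0 of 10 passed (edgeR; 0.00568% of all genes did), with members between -1.91 and 0.21, 1 at an unadjusted p under 0.05 (Hhip, -1.91) and 0 by DESeq2. Contralateral against uninjured kidneys gave 0 of 10 (0.455% of all genes), with members between -0.93 and 0.48, and nephrectomy against uninjured kidneys 0 of 10 (0.176% of all genes), with members between -1.27 and 0.22. In both of these the count was 0 at an unadjusted p under 0.05 and by DESeq2, and also without any single library, nephrectomy library 1 and uninjured library 2 included. Only 2 uninjured libraries entered, and Gli1 was at 0 and 1.297 CPM in them.

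The stroma of these kidneys moved in the same way as the rising members. The mean log2 CPM of 12 stromal marker genes (Pdgfra, Pdgfrb, Dcn, Lum, Col1a1, Col1a2, Col3a1, Cspg4, Notch3, Rgs5, Des and Tagln) was 4.884 ± 0.146 (SD, n = 12; 4.644 to 5.136) in contralateral kidneys, 6.834 ± 0.408 (SD, n = 4) in injured wild-type tamoxifen, 6.646 ± 0.552 in injured floxed vehicle and 5.542 ± 0.467 in injured labelled Ihh-deleted kidneys. All 12 injured libraries lay between 4.896 and 7.348, so only the lowest reached into the contralateral range. Of the 12 markers 11 rose with injury (median 1.45) and 11 fell in labelled Ihh-deleted against intact injured kidneys (median -1.30). In bulk tissue more cells of a type and more RNA per cell cannot be told apart. Proximal tubule went the other way, with 6 of 6 markers of segments S1 and S2 lower after injury (median -1.55) and 6 of 6 higher in the labelled Ihh-deleted arm (median 1.01).

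Each member was therefore also expressed relative to those 12 markers in the same library. Relative to the 12 markers Gli1 alone was higher after injury, by 0.59 (permutation test, two-sided, p = 0.00368; n = 12 and 12). Gli3 (0.19, p = 0.106), Cdon (-0.04, p = 0.756) and Hhip (-0.10, p = 0.853) did not pass the same permutation test. The other 6 were lower. The markers' own mean log2 CPM was 4.884 in contralateral and 6.34 in injured kidneys. A gene at an unchanged level thus comes out lower here, and these p-values do not measure a fall of its own. Sufu differed by -2.17, Smo by -1.78, Ptch1 by -1.7 and Gas1 by -1.61, each with a permutation p of 2e-05, the smallest that 100000 resamples can give, and Gli2 by -1.22 (permutation p = 0.00126) and Boc by -0.68 (permutation p = 4e-05). The choice of markers matters here: relative to Pdgfrb alone Gli3 (1.23), Cdon (0.99) and Boc (0.35) were called higher as well as Gli1 (1.63), and Gli2 (-0.19) was no longer called lower.

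Between labelled Ihh-deleted and intact injured kidneys no member passed the test as lower relative to the markers. The values of Hhip and Gli1 were negative, and that of Hhip stayed between -1.507 and -0.8285 without any single library. Gli1 stood at -0.17 (exact permutation test, two-sided, p = 0.509; n = 4 and 8), Gli3 at 0.23 (p = 0.0566), Cdon at 0.33 (p = 0.125), Gas1 at 0.48 (p = 0.101) and Hhip at -1.18 (p = 0.141). Higher were Gli2 by 1.84 (exact p = 0.00404, the smallest that 495 arrangements allow), Sufu by 1.51, Smo by 1.13, Ptch1 by 1.08 and Boc by 0.46 (exact p = 0.0364). The markers' own mean log2 CPM was 5.542 in labelled Ihh-deleted and 6.74 in intact injured kidneys. A gene at a nearly unchanged level, such as Ptch1 (-0.12) or Smo (-0.07), thus comes out higher on this measure. The part of stromal content in the falls of Gli1, Gli3, Cdon, Boc, Gas1 and Hhip was otherwise not tested.

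**Figure D3:**
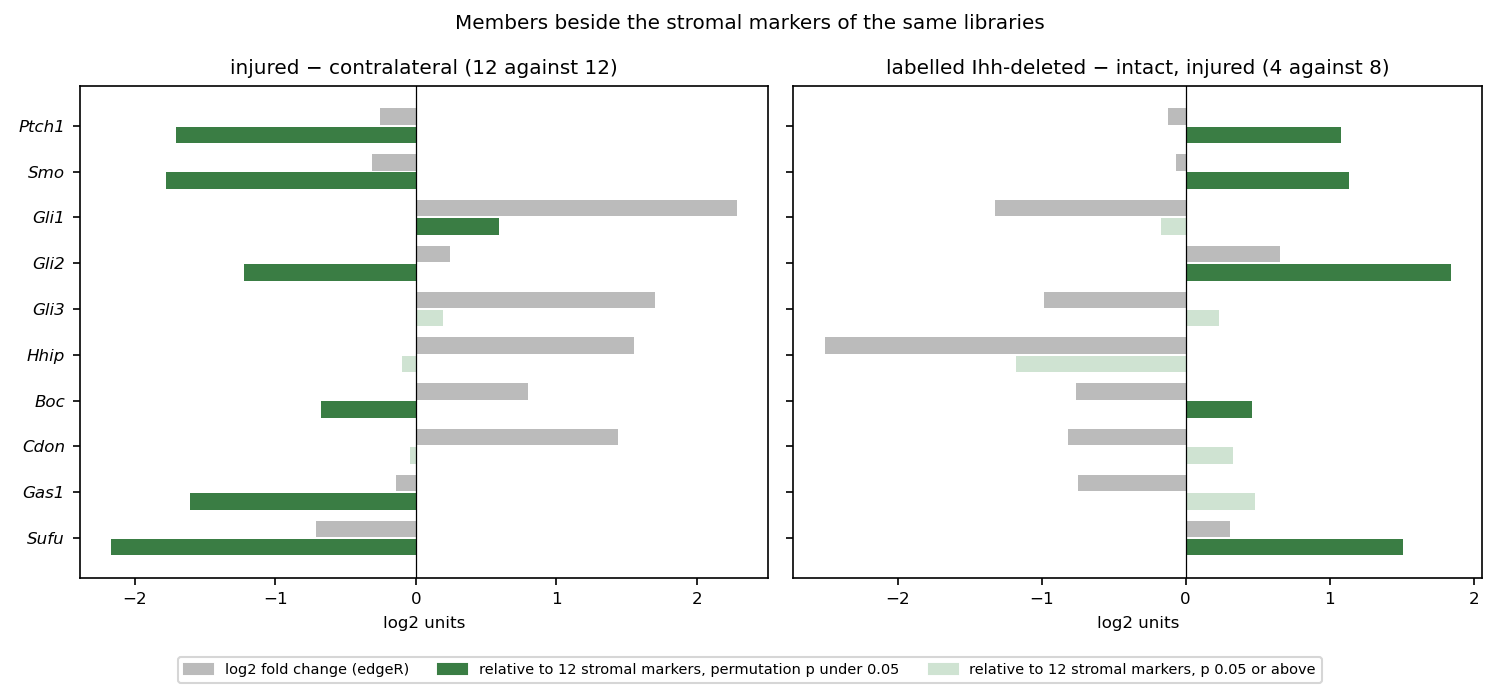
For each gene the grey bar is edgeR's log2 change between groups and the green bar the difference relative to 12 stromal markers. The panels show injury and labelled Ihh-deleted against intact arms, and dark green passed a permutation p of 0.05. Relative to the 12 markers Gli1 alone stays higher with injury (0.59), and with Pdgfrb alone as reference Gli3, Cdon and Boc do too. No gene passes as lower in the labelled Ihh-deleted arm, where Hhip and Gli1 are negative.

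The level of Ihh was set against the members library by library. Over 12 injured libraries r ran from -0.524 to 0.654 for the 10 members, and no relation passed after adjustment over the 10. The highest was Smo (Pearson r = 0.654, permutation p = 0.0166; Spearman rho = 0.734, p = 0.00934; r = 0.582 without the 2 libraries farthest from the median of Ihh). Gli1 showed r = 0.128 (permutation p = 0.711; rho = 0.28). Within the 8 intact libraries r ran from -0.605 to 0.781, and within the 12 contralateral ones from -0.653 to 0.526, with none past adjustment in either set. In the intact libraries the members that rose with injury had negative r: Gli1 -0.605 (permutation p = 0.108), Cdon -0.588, Gli3 -0.578, Boc -0.514 and Hhip -0.316. Gas1 (-0.327) and Gli2 (-0.119) were negative too, and Sufu (0.781), Smo (0.744) and Ptch1 (0.0964) positive.

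Other genes of the pathway followed their roles unevenly. Over all genes tested 39% were higher and 34.7% lower with injury, and 20.5% higher and 16.7% lower in the deletion comparison, so the counts below are set beside those shares. Among 9 genes of ligand production and release 5 rose and 1 fell with injury (median 0.49, against 0.05 for all genes): the release factor Scube1 rose by 2.32 (SE 0.26; edgeR, adjusted p = 2.73e-08), the ligands Shh and Dhh by 0.78 and 0.67, and Ihh fell by 0.70. In labelled Ihh-deleted against intact injured kidneys 0 of these rose and 3 fell, Scube1 (-1.48), Dhh (-0.96) and the acyltransferase Hhat (-0.61). Among 7 other receptors and ligand binders 4 rose and 2 fell with injury, with the glypican Gpc6 up by 1.83 and Gpc4 (-1.11) and megalin, Lrp2 (-1.4), down. In the deletion comparison 2 fell, Gpc6 (-1.03) among them, and Lrp2 (1.04) and Gpc4 (0.94) rose.

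Of 28 genes of the cilium and of Gli processing 9 rose and 11 fell with injury, with a median of -0.04. The ciliary receptor Gpr161 (2.36), Arrb2 (1.54) and the kinesin Kif7 (1.26) rose most, and Evc (-0.93), Tulp3 (-0.87) and Prkaca, the catalytic subunit of protein kinase A (-0.68), fell most. These counts lie near the shares of all genes. In labelled Ihh-deleted against intact kidneys 7 rose and 4 fell, with Evc (0.93), Evc2 (0.59) and Tulp3 (0.54) up and Kif7 (-0.99), Gpr161 (-0.89) and Arrb2 (-0.72) down. Of 13 tested genes listed as Gli targets 10 rose and 3 fell with injury (median 1.15), with Tgfb2 (1.94), Ccnd2 (1.72) and Igfbp6 (1.67) highest and Osr2 (-1.17), Ccnd1 (-0.85) and Mycn (-0.40) lower. In the deletion comparison 0 of the 13 rose and 8 fell (median -0.79), Snai1 (-1.21) and Ccnd2 (-1.04) among them. The levels of the stromal markers also differed in both comparisons, and their part in these counts was not tested.

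As a description over the 29 libraries, which fall into injured and other kidneys, the genes whose log2 CPM was most like that of Gli1 among 13278 were Tnfsf13b (r = 0.936), Cacna1a (0.9357), Agap2 (0.9339), Gxylt2 (0.9277) and Eml4 (0.9272). For Hhip they were Ap3m2 (0.8084), Tbc1d31 (0.7942), Abcg1 (0.7935), Me2 (0.7886) and Smc2 (0.7848). For Ptch1 they were Arvcf (0.7982), Prox1 (0.7902), Lrp4 (0.7807), Phlpp2 (0.7677) and Guf1 (0.7536).

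In single cells 7 of the members were listed for the injured kidney (3063 cells, 15340 genes) and 6 for the uninjured one (1313 cells, 13217 genes); the tables list no row for Gli1, Gli2 or Hhip, nor for Gli3 in the uninjured kidney. The libraries share 8 cell barcodes. With 1 library per condition there is no test, and the intervals below are exact 95% binomial ones that cover counting error only. Median depth was 2010 UMIs per cell in the injured and 2390 in the uninjured kidney, and median mitochondrial share 5.97% and 23.6%. Clusters were built without the members and named from fixed markers, as X-like, where at least 3 markers were detected and 1 stood among the cluster's top 10 genes, the last condition having been added after the clusters were seen. The collecting duct principal-like cluster also had the distal convoluted tubule markers Calb1 and Slc12a3 among its top 10 genes. No cluster was named for the distal convoluted tubule, so principal-like shares may include such cells.

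Ptch1 was most often seen in collecting duct intercalated-like cells, which secrete acid or bicarbonate. It had a UMI in 22 of 88 such cells of the injured kidney, 25% (16.4 to 35.4), and in 7 of 32 of the uninjured kidney, 21.9% (9.28 to 40.0). Elsewhere in the injured kidney the share was 4.67% in collecting duct principal-like, 4.61% in thick ascending limb-like and 3.81% in fibroblast and mural-like cells. In T cell-like cells, taken as background, it was 1.78% at a median of 1310 UMIs, against 3550 in the intercalated-like cells, and in endothelial-like cells 0 of 225, which allows a share of up to 1.33%. Per 10000 UMIs, a scale free of depth per cell, intercalated-like cells held 0.845 (0.557 to 1.23) and all injured cells 0.108. After thinning each cell to 1000 UMIs the shares were 7.95% (3.26 to 15.7) and 12.5% (3.51 to 29), and among cells of at most 25% mitochondrial UMIs 24.3% and 20%.

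Smo and Gas1 were seen in fibroblast and mural-like cells, the stromal class that makes matrix. Smo had a UMI in 21 of 105 of them, 20% (12.8 to 28.9), in 5.87% of proximal tubule S1 and S2-like cells and in 0 of 338 T cell-like cells, which allows up to 0.888%. Only 7 fibroblast and mural-like cells came from the uninjured kidney, so no comparison between the kidneys was made. With finer clusters an unnamed cluster led by Tagln, Map1b, Akap12, Ankrd1 and Ncam1 held 20 Smo UMIs (16 of 51 injured cells, 31.4%), and the class still named fibroblast and mural-like showed 9.26%. Thinned to 1000 UMIs per cell the Smo share in the fibroblast and mural-like class was 7.62% (3.35 to 14.5). Gas1 had a UMI in 18 of 105 fibroblast and mural-like cells, 17.1% (10.5 to 25.7), and in 6.67% (2.72 to 13.3) after thinning. In T cell-like cells it had a UMI in 0 of 338, which allows up to 0.888%, at a median of 1310 UMIs. It was also seen in epithelium, in 12.5% of thick ascending limb-like cells (median 2560 UMIs) and 10.7% of principal-like cells (median 2290), which were 4.61% and 4.67% after thinning. The principal-like cluster also carried distal convoluted tubule markers, as given above. With finer clusters the principal-like share was 10.8%, but the thick ascending limb-like one was 3.45% (2 of 58 cells). Gas1 was also seen in 16 of 114 cells (14.0%) of an unnamed cluster led by Fst, Bst1, Cryab and Apela, which in the uninjured kidney held it in 14 of 30 (46.7%).

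Sufu had a UMI in 4.93% of S3-like and 3.73% of S1 and S2-like proximal tubule cells of the injured kidney and in 4.36% and 6.39% of those of the uninjured one. In T cell-like cells of the injured kidney it was 0.296% (1 of 338, 0.00749 to 1.64). Thinned to 1000 UMIs, the injured proximal tubule shares were 1.97% (0.728 to 4.25) and 0.533% (0.0647 to 1.91) and the uninjured ones 1.63% and 1.98%. The intervals of the thinned injured shares overlapped that of the T cell-like cells, whose share is given without thinning. Boc had only 13 UMIs in the injured kidney, of which 9 were in endothelial-like cells (9 of 225, 4.0%, 1.85 to 7.46), and 5 of 26 endothelial-like cells of the uninjured kidney had one (19.2%, 6.55 to 39.4). Thinned to 1000 UMIs, the Boc share in injured endothelial-like cells was 1.78%, below the interval given for them. Cdon had 18 UMIs in the injured kidney, 4 of them in the 105 fibroblast and mural-like cells. Gli3 had 5 UMIs, 3 in that class. Depth was too low to rank Cdon and Gli3 across cell types.

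**Figure D4:**
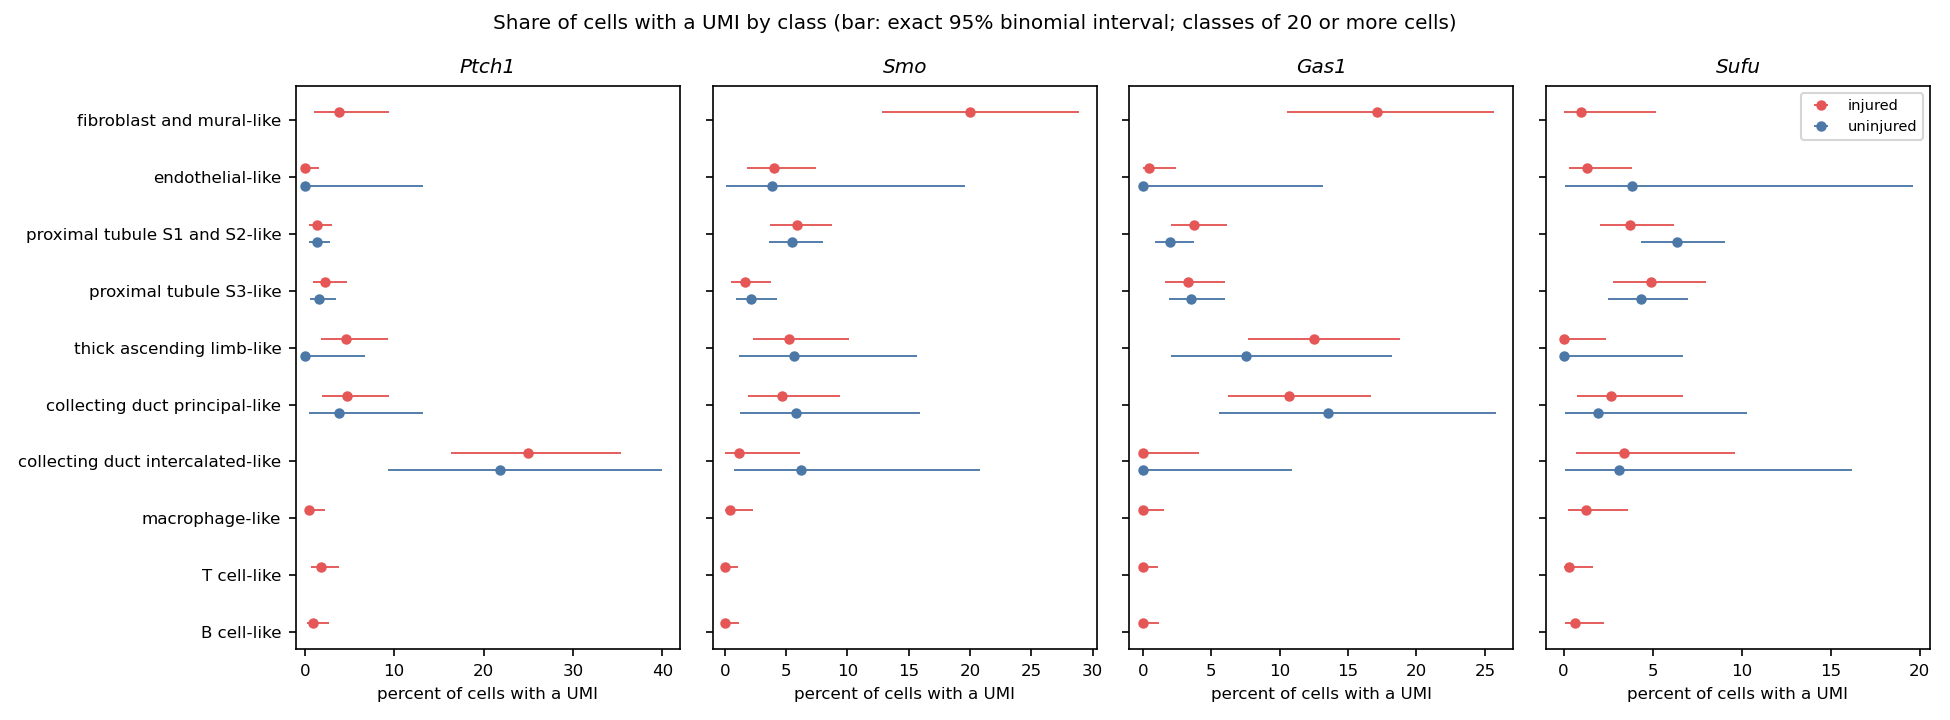
Share of cells with a UMI for Ptch1, Smo, Gas1 and Sufu in each named class of 20 or more cells, injured and uninjured kidney, with exact 95% binomial intervals. Ptch1 is highest in intercalated-like cells of both kidneys (25% and 21.9%). Smo is at 20% and Gas1 at 17.1% in fibroblast and mural-like cells of the injured one. Depth differs between classes, and thinned to 1000 UMIs these shares are 7.95%, 12.5%, 7.62% and 6.67%. With finer clusters the Smo share in that class is 9.26%. The Gas1 interval there also holds its thick ascending limb-like and principal-like shares.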

How the data were processed

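RNA was measured in bulk kidney libraries and in single cells. The bulk values are expected counts per transcript, which the authors made and deposited; the submitters' processing notes name Salmon 1.4, STAR, Cell Ranger and the builds GRCm38 and mm10, with the role of each not given in the sources used here. For single cells the authors deposited UMI counts by gene and cell.

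Expected counts were summed per gene (105203 of 105833 transcripts matched GENCODE; the rest held 0.213% of counts), rounded to whole numbers (83.2% of positive values were not whole) and fitted in edgeR 4.0.16 (R 4.3.3) with 1 coefficient per group, TMM factors and filterByExpr, over 29 libraries, with Benjamini-Hochberg adjustment. DESeq2 1.42.0 was an alternative. Member levels relative to stromal markers used log2 CPM (prior count 2) and permutation tests. On simulated data 200 of 17591 genes were changed, in equal parts by a log2 of 1 and of 2. In the injury comparison 85% of the former and 99% of the latter were recovered. No pair of libraries in a group agreed within counting noise (lowest chi-square per gene 1.919 over 40 pairs).

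Cells were clustered with scanpy 1.11.5 (2000 variable genes, 30 components, resolution 1) without the members. The doublet caller marked 5 of 3063 and 3 of 1313 cells, too few to be taken as working, and no cell was removed. The single cells carry counting error only.

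All 10 members are named with injury (over all arms and by arm), between labelled Ihh-deleted and intact injured kidneys and in the interaction, and by count and range in the other comparisons. Also named are Ihh, Shh and Dhh, up to 3 genes per direction from each pathway list by size among those called, the 5 genes most like Gli1, Ptch1 and Hhip, and Slc34a1 and Myh6; 1 item of these lists is not reported here. The members and lists were chosen with earlier results of these data known. Column numbers were checked as pairs: same-numbered injured and contralateral libraries correlated at -0.207 to 0.183.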

Additional observations from a re-analysis of the deposited data

Results flagged for a closer look

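Among the 60 sets of 4 libraries examined, 4 held a library far from its 3 companions, where chance gives about 1 in 20. Contralateral library 3 of the wild-type tamoxifen arm had Gli2 at 0.824 CPM, and the others 1.065 to 1.101. Hhip stood at 0.5183 CPM in contralateral library 4 of the labelled Ihh-deleted arm (others 0.04627 to 0.1078) and at 1.407 in contralateral library 3 of the floxed vehicle arm (others 0.3568 to 0.5199). Gas1 stood at 62.52 CPM in contralateral library 2 of the floxed vehicle arm (others 35.58 to 37.12).

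The injury change differed between the labelled Ihh-deleted and intact arms, by the interaction test given above, for Gli3 (-1.1917), Boc (-0.9576) and Cdon (-0.8063).

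The 3 heart-profile libraries, left out of every comparison, held more of 5 members than any uninjured kidney library of the 29. On library totals their lowest values were 1.306 CPM for Gli1, 4.037 for Gli2, 8.104 for Gli3, 26.45 for Cdon and 44.32 for Gas1, and the highest uninjured kidney values were 1.192, 1.325, 1.722, 18.41 and 28.22. Their Ptch1 (28.5 to 33.42 CPM), Smo (17.6 to 24.5), Sufu (15.64 to 16.83) and Hhip (0 to 0.03667) lay below the uninjured kidney range.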

How the results depend on the processing

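Over all results and settings 1875 values kept their direction and side of the threshold (a count of members or genes was held to stay within 1.5 times, a share of cells within its interval), 94 fell below the threshold, 19 rose past it, 35 moved and 26 turned in sign. With all 32 libraries, heart-profile ones included, called members numbered 4 in the floxed vehicle arm, 0 in the labelled Ihh-deleted arm, 1 between labelled Ihh-deleted and intact injured kidneys (1657 genes in place of 6539), 0 in the interaction (167 genes in place of 2834) and 5 between contralateral and uninjured kidneys. Transcript length offsets left 1 member in the interaction. With library totals, an alternative chosen after seeing the data, the interaction held 5 members, the injury changes of Ptch1, Smo and Gas1 turned to 0.097, 0.0474 and 0.2379, and the interaction of Sufu to -0.025, Smo was at 0.1582 in the wild-type tamoxifen and 0.2063 in the floxed vehicle arm and Ptch1 at 0.358 and 0.1218 (wild-type tamoxifen 0.0145 with RLE factors and 0.0144 with DESeq2); 24.8% of genes called between labelled Ihh-deleted and intact injured kidneys were then higher, and 24.9% in the interaction, against 55.2% and 64.4% with TMM factors. Against the floxed vehicle arm alone 2881 genes passed and Ptch1 stood at 0.0421. With Pdgfrb alone as the stromal reference Hhip (0.9337), Boc (0.3539) and Cdon (0.9903) turned positive with injury, Boc, Cdon and Gli3 (1.225) passed the threshold as higher and Gli2 (-0.1899) lost its call, and with a prior count of 0.5 Hhip was at 0.063. With the column number as a replicate block the interaction held 1751 genes and lost Cdon, Gli1 lost its call in the labelled Ihh-deleted arm (1.31, adjusted p = 0.0751), Ptch1 lost its call in the floxed vehicle arm (-0.29, adjusted p = 0.054), which left 6 called members in place of 7, and the calls of Gli1, Gli3, Hhip, Boc, Cdon and Sufu with injury in the other arms and pooled were kept; own numbers correlated best in 5 of 12 pairs, so the numbers were not taken as pairs. The causes were not tested.

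Leaving out 1 library at a time gave 1 to 5 members and 854 to 4842 genes in the interaction, 3534 to 7584 genes between labelled Ihh-deleted and intact injured kidneys, and 4 to 7 members in the labelled Ihh-deleted arm. Relative to stromal markers, 0 to 6 members passed in the deletion comparison after adjustment over the 10, where 4 did with all libraries and 0 did without injured labelled Ihh-deleted library 1, 2 or 3. Ranges that crossed 0 were those of Hhip in the interaction (-1.55 to 0.5921), Hhip (-0.3457 to 0.0749) and Cdon (-0.0824 to 0.0142) relative to the markers with injury, and Gli1 (-0.3599 to 0.0412) relative to them in the deletion comparison. Thinned to 1000 UMIs per cell, the Ptch1 share in intercalated-like cells was 7.95%. Depth limits Gli1, Gli2 and Hhip in bulk, and Boc, Cdon and Gli3 in single cells.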
